A study of Homo sapiens with 22 samples.

Results

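The proteasome is the protease complex that breaks down proteins tagged with ubiquitin. Its core, the 20S particle, is a barrel of alpha and beta rings, and the beta subunits PSMB5, PSMB6 and PSMB7 carry the active sites. The 19S cap recognises, unfolds and feeds the substrate: its base holds a ring of ATPases, its lid holds the deubiquitinase PSMD14, and dedicated chaperones help to assemble the base. In normoxia the proteasome also removes HIF1A, the oxygen-regulated subunit of the hypoxia inducible factor, after it has been hydroxylated and tagged with ubiquitin. The genes were taken by name, as PSMA, PSMB, PSMC or PSMD followed by a number, without the inducible PSMB8, PSMB9 and PSMB10. Of 36 such genes 31 were measured, among 19775 genes in all. PSMA6 is named only by 2 probesets that also name another gene, and PSMB11, PSMC5, PSMD7 and PSMD13 are named by 0 probesets of the annotation used.

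Expression was measured in 11 neuroblastoma cell lines cultured for 18 h under hypoxic (1% O2) or normoxic (20% O2) conditions, with 1 array per line and condition. The lines were GI-LI-N, ACN, SHEP-2, SK-N-BE2(C), IMR-32, SK-N-F1, LAN-1, SK-N-SH, GI-ME-N, SHEP21N without MYCN overexpression and SHEP21N with it, named SHEP21N_MYC. The SHEP lines came from another provider than the other lines and share a name, and both SHEP21N entries are called SHEP21N in the cell line label and differ in MYCN overexpression. The labels do not say that the cultures were repeated, so lines stand in for replicates. The p-values between conditions measure the spread of the change between lines. Signals are MAS5 intensities, and a level is log2 of the signal over the array median. A change is the hypoxic minus the normoxic level of a line. Less RNA per cell and fewer cells of a type cannot be told apart.

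The known hypoxia genes BNIP3, PDK1, NDRG1 and VEGFA rose by 1.88 to 2.30 on the log2 scale (limma adjusted p 0.0128 to 0.0148). Of 7 sympathetic neuroblast markers 6 were measured, and their summed signal was 24740 or more on both arrays of SK-N-BE2(C), LAN-1, SK-N-F1, GI-LI-N, SK-N-SH and IMR-32, and at most 3939 on those of GI-ME-N, both SHEP21N lines, SHEP-2 and ACN. The neuroblast markers were thus low in these last lines, and the part of that difference in the results between lines was not tested. The lowest sum was 111.3, in hypoxic ACN. The 6 mesenchymal markers summed to between 11332 and 166289, the blood cell marker PTPRC reached at most 377.4, and the 2 endothelial markers at most 439.2. Array medians ran from 69.4 to 133.6. The lowest signal of an array was 3.3 on all arrays of both SHEP21N lines and 0.092 to 0.80 on the others. A difference between both SHEP21N lines and the other lines thus cannot be told apart from one in array processing. The 3'/5' signal ratio of GAPDH, a measure of RNA integrity, was 67.3 on the normoxic SHEP21N_MYC array against a median of 1.12, and that of ACTB was 94.0 there and 5.05 on the normoxic SHEP21N array against a median of 1.61. Their part in the results was not tested, and values without SHEP21N_MYC are given where that line moved a value by over 1.5 times. The normoxic arrays labelled IMR-32, SK-N-SH and GI-LI-N form the 3 most similar pairs of lines over all probesets, with r of 0.900 to 0.906, so whether they are independent lines could not be settled from the expression values. With these 3 averaged into 1 line, 10 proteasome genes were lower at an unadjusted limma p under 0.05, against 6.36% of all genes, and the smallest adjusted p was 0.372.

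Promoter sequences are shown for 3 genes on which the results turn. PSMD14 and PSMD12 were among the 6 genes with the smallest p between conditions, and PSMD5 had the widest range between lines. Each sequence is the 250 bases before the RefSeq start of the gene (GRCh38.p14), 5′ to 3′ on the gene's strand and outside the annotated gene, with the letters of a searched motif in capitals. PSMD14 lies at chr2:161308175-161308424 (+ strand), with CCAAT, the box bound by NFY, on both strands at 48 and 45 bases before the start. PSMD12 lies at chr17:67366578-67366827 (- strand), with TGACNNNGC, the core of the antioxidant response element bound by NFE2L1 and NFE2L2, at 165 bases before. PSMD5 lies at chr9:120842923-120843172 (- strand), with the same motif at 134 bases before. The PSMD5 sequence also holds ACGTG, the core of the hypoxia response element, on the other strand, where it reads cacgt and is left in lower case.
PSMD14: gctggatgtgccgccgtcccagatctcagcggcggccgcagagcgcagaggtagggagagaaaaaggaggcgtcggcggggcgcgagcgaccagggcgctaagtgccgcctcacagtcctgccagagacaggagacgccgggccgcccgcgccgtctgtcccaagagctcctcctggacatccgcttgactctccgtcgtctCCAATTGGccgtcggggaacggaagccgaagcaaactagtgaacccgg
PSMD12: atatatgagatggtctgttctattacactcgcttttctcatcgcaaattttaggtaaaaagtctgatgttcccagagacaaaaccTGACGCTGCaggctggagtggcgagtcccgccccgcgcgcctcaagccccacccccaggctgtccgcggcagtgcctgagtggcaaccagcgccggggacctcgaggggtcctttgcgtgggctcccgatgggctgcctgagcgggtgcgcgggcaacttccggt
PSMD5: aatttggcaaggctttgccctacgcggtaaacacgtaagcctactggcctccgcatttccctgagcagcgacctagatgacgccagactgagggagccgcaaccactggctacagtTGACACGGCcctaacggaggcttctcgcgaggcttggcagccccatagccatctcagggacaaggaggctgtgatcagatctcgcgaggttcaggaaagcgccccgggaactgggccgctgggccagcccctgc
The motifs were searched on both strands of 300-base windows, and 31 of the 36 genes had such windows (37 windows). CCAAT was found in 17 of them (45.9%), against 34.6% of all 35116 windows. TGACNNNGC was found in 9 (24.3%), against 13.3%. The hypoxia response element core ACGTG was found in 7 (18.9%), against 21.4%, and CACGTG, the E-box, in 2 (5.41%), against 7.26%. CACGTG contains ACGTG, so its windows are counted in both. Of the 6 genes with the smallest p, PSMC2, PSMD14 and PSMB2 had CCAAT, PSMD1 and PSMD12 had TGACNNNGC, and PSMC6 had none of the letters searched. These are matches of letters, and binding was not measured.

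The 31 proteasome genes were on average slightly lower in hypoxia, and none passed the adjusted limit (limma, 0.162% of all genes called). The smallest adjusted p was 0.198. The median change was -0.19, which as a percent change is -12.3%, against -0.04 over all genes and -0.09 over the 3175 genes with a mean signal of at least 2000, to which 29 of the 31 belong. The mean change was below 0 in 29 of 31 genes, against 55.6% of all genes and 69.4% of the bright genes. At an unadjusted limma p under 0.05, 11 genes were lower, against 7.07% of all genes and 15.5% of bright genes, and 0 were higher, against 3.6%. By the exact sign-flip permutation test 15 genes were lower at an unadjusted p under 0.05, against 9.01% of all genes and 23.8% of bright genes. Lower in at least 9 of 11 lines were 14 genes, against 9.84% of all genes and 23.2% of bright genes.

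**Figure D1:**
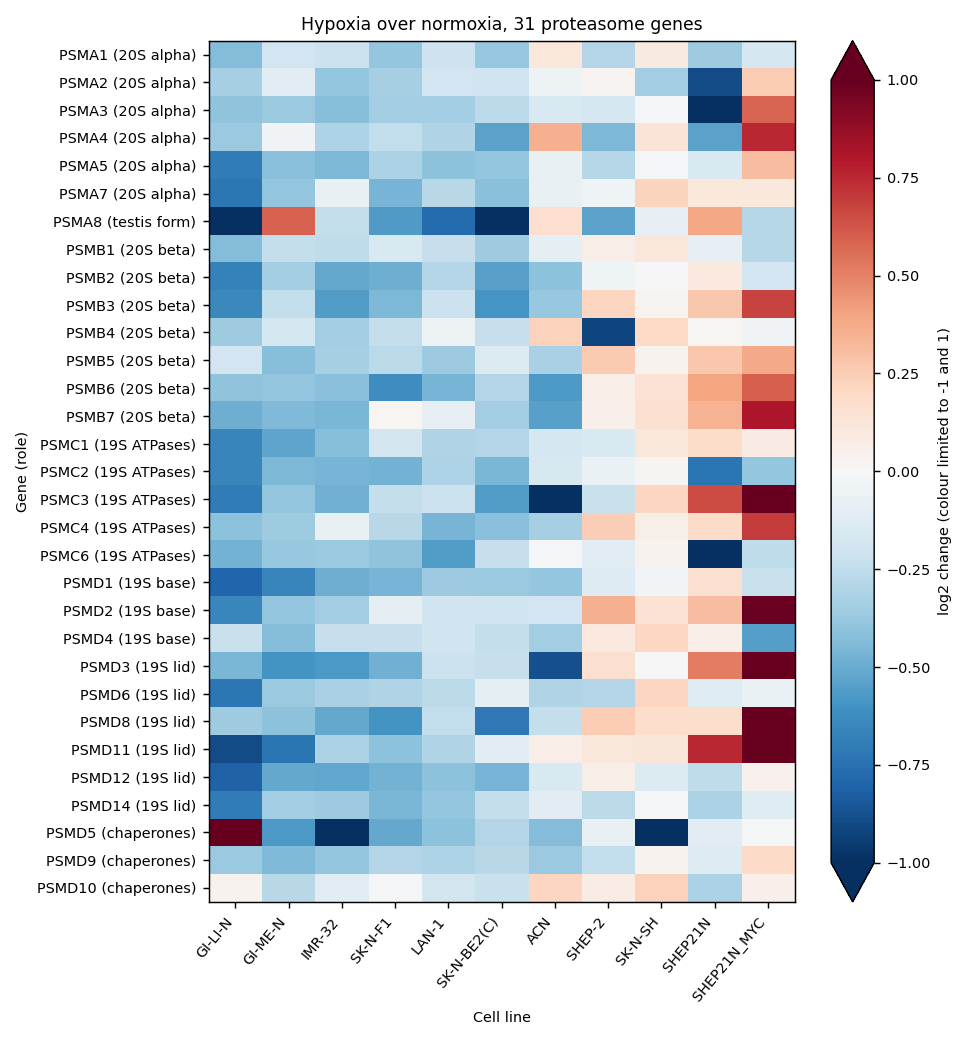
Log2 change, hypoxia over normoxia, of the 31 proteasome genes (rows, grouped by role) in the 11 cell lines (columns), with 1 array pair per cell and colours limited to -1 and 1. Blue marks lower and red higher in hypoxia: the columns from GI-LI-N to SK-N-BE2(C) are nearly all blue, while SK-N-SH and both SHEP21N columns hold many red cells.

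The genes are described by role, each with its mean change over the 11 lines. The alpha ring gates the barrel, and its 6 measured genes of the common form had mean changes below 0, with a median of -0.23. PSMA3 was at -0.27, PSMA5 at -0.26, PSMA2 at -0.23, PSMA1 at -0.22, PSMA7 at -0.19 and PSMA4 at -0.14. PSMA4 was 0.76 higher in SHEP21N_MYC, and without that line its mean was -0.23. PSMA1, PSMA2 and PSMA5 had an unadjusted limma p under 0.05. The testis form PSMA8 had signals of 8.23 to 72.7 in normoxia and 2.55 to 73.7 in hypoxia, below the median of its array on each, and its change of -0.64 (SD over lines 1.23) is that of a dim probeset.

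In the beta ring 7 of 7 genes had a mean change below 0, with a median of -0.17 and only PSMB2 at an unadjusted p under 0.05. The subunits with active sites, PSMB5, PSMB6 and PSMB7, were at -0.10, -0.18 and -0.09, with SDs over the lines of 0.29, 0.41 and 0.42. Their differences from 0 were smaller than the SD over lines. The same held for PSMA2, PSMA5 and PSMC6, which had an unadjusted limma p under 0.05. PSMB5, PSMB6 and PSMB7 were all higher in hypoxia in SHEP21N_MYC, PSMB7 by 0.81, and without that line they were at -0.15, -0.26 and -0.18. The structural subunits PSMB1, PSMB3 and PSMB4 were at -0.18, -0.17 and -0.17, and PSMB2 at -0.31. PSMB1 was lower in 9 of 11 lines with a small spread (SD 0.17) and an unadjusted limma p of 0.055.

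In the 19S base 4 of 5 ATPases were below 0, with a median of -0.21, and PSMC2 and PSMC6 had an unadjusted p under 0.05. PSMC1 was at -0.21. PSMC4 was at -0.10, or -0.18 without SHEP21N_MYC, where it was 0.70 higher. The scaffold subunits PSMD1 and PSMD2 and the ubiquitin receptor PSMD4 were at -0.34, -0.02 and -0.19. PSMD2 was lower in 7 of 11 lines, but it was 0.99 higher in SHEP21N_MYC, and without that line its mean was -0.13.

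In the lid 5 of 6 genes were below 0, with a median of -0.16, and PSMD6, PSMD12 and PSMD14 had an unadjusted p under 0.05. PSMD6 was at -0.24 and lower in 10 of 11 lines. PSMD8 and PSMD11 were at -0.08 and -0.05, and both were higher in SHEP21N_MYC, by 1.57 and 1.10. Without that line they were at -0.25 and -0.17. Of the assembly chaperones PSMD9 was at -0.24 with an unadjusted p under 0.05, PSMD10, also known as gankyrin, was at -0.05, and PSMD5 was at -0.31 with an SD over lines of 1.39.

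The 6 genes with the smallest p are given in full. PSMC2, a 19S ATPase, had normoxic signals from 7627 to 27908 with a median of 10742, and hypoxic signals from 6014 to 24923 with a median of 8608. Its change was -0.38 ± 0.09 (SE), with an adjusted limma p of 0.198. It was lower in 10 of 11 lines, and the groups overlapped widely because lines differed more than conditions. By line the change was -0.73 in SHEP21N, -0.66 in GI-LI-N, -0.47 in SK-N-F1, -0.46 in IMR-32 and SK-N-BE2(C), -0.45 in GI-ME-N, -0.39 in SHEP21N_MYC, -0.31 in LAN-1, -0.16 in ACN, -0.07 in SHEP-2 and 0.03 in SK-N-SH. Only SK-N-SH was not lower.

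PSMD14, the lid deubiquitinase, had normoxic signals from 6169 to 18686 with a median of 10671, and hypoxic signals from 5002 to 15579 with a median of 8581. Its change was -0.30 ± 0.09 (SE, limma adjusted p 0.249). By line it ran from -0.70 in GI-LI-N, -0.46 in SK-N-F1, -0.39 in LAN-1, -0.36 in IMR-32, -0.34 in GI-ME-N, -0.32 in SHEP21N, -0.27 in SHEP-2 and -0.24 in SK-N-BE2(C) to -0.12 in SHEP21N_MYC and in ACN and -0.01 in SK-N-SH. It was the only one of these 6 that was lower in 11 of 11 lines. Its exact sign-flip permutation p was 0.000977, the smallest that 11 lines allow. After adjustment over all genes it was 0.092, the smallest adjusted value of any gene, so no gene fell under 0.05 by this test.

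PSMD1, the scaffold of the base, had normoxic signals from 4587 to 9781 with a median of 6506, and hypoxic signals from 3419 to 8390 with a median of 5290. Its change was -0.34 ± 0.10 (SE, limma adjusted p 0.269). It was lower in 10 of 11 lines, from -0.79 in GI-LI-N, -0.66 in GI-ME-N, -0.49 in IMR-32, -0.47 in SK-N-F1, -0.38 in ACN, -0.37 in SK-N-BE2(C) and -0.36 in LAN-1 to -0.22 in SHEP21N_MYC, -0.13 in SHEP-2, -0.03 in SK-N-SH and 0.16 in SHEP21N.

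PSMD12, a lid subunit, had normoxic signals from 4052 to 8878 with a median of 5849, and hypoxic signals from 3190 to 7880 with a median of 4239. Its change was -0.33 ± 0.10 (SE, limma adjusted p 0.277). It was lower in 9 of 11 lines, from -0.81 in GI-LI-N, -0.52 in IMR-32, -0.51 in GI-ME-N, -0.47 in SK-N-F1 and SK-N-BE2(C) and -0.41 in LAN-1 to -0.25 in SHEP21N, -0.16 in ACN, -0.14 in SK-N-SH, 0.05 in SHEP21N_MYC and 0.06 in SHEP-2. GI-LI-N, IMR-32, GI-ME-N and SK-N-F1 held the lowest values of both PSMD12 and PSMD1.

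PSMB2, a beta ring subunit without an active site, had normoxic signals from 8058 to 21452 with a median of 12483, and hypoxic signals from 6015 to 18500 with a median of 9136. Its change was -0.31 ± 0.10 (SE, limma adjusted p 0.293), and it became 0.06 when the levels of all its 4 probesets were averaged. It was lower in 10 of 11 lines, from -0.67 in GI-LI-N, -0.54 in SK-N-BE2(C), -0.51 in IMR-32, -0.48 in SK-N-F1, -0.41 in ACN, -0.34 in GI-ME-N and -0.30 in LAN-1 to -0.19 in SHEP21N_MYC, -0.05 in SHEP-2, -0.00087 in SK-N-SH and 0.10 in SHEP21N.

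PSMC6, a 19S ATPase, had normoxic signals from 2715 to 8260 with a median of 4925, and hypoxic signals from 2453 to 7478 with a median of 4048. Its change was -0.39 ± 0.14 (SE, limma adjusted p 0.350). SHEP21N held the lowest value, -1.56, and the other lines ran from -0.56 in LAN-1, -0.47 in GI-LI-N, -0.41 in SK-N-F1, -0.38 in GI-ME-N and -0.37 in IMR-32 to -0.26 in SHEP21N_MYC, -0.23 in SK-N-BE2(C), -0.12 in SHEP-2, -0.02 in ACN and 0.03 in SK-N-SH. Without SHEP21N the mean change was -0.28.

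**Figure D2:**
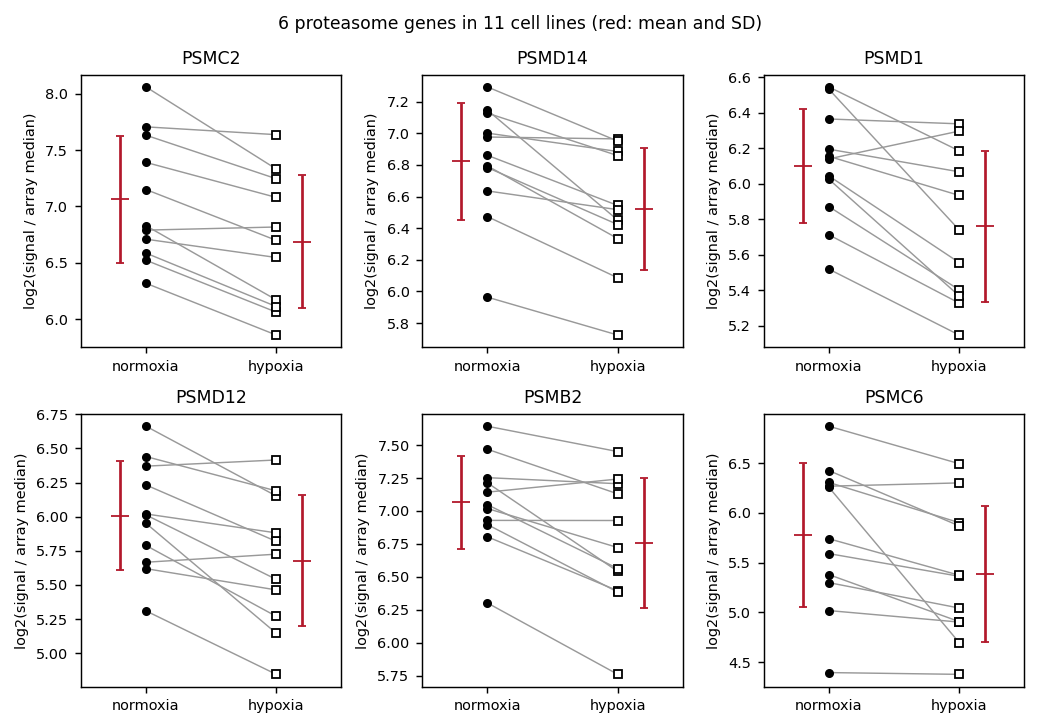
Levels, log2 of the signal over the array median, of the 6 proteasome genes with the smallest p in normoxia (filled circles) and hypoxia (open squares). Each grey line joins the arrays of 1 cell line, and red bars show the mean and SD of the 11 lines. Most lines slope downward in each panel, and both groups overlap.

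PSMC3, a 19S ATPase, and PSMD3, a lid subunit, were the only genes with a mean change above 0, at 0.08 and 0.19. Both values rested on 1 line. PSMC3 had a normoxic signal of 450.3 and a hypoxic signal of 5661 in SHEP21N_MYC, a change of 3.87, while its other normoxic signals were 2254 or more. PSMD3 had 316.6 and 7950 there, a change of 4.87. In SHEP21N both genes were also higher in hypoxia, by 0.66 and 0.51. Without SHEP21N_MYC the mean changes were -0.29 for PSMC3 and -0.28 for PSMD3. The 31 genes were then all lower, with a median of -0.26 against -0.05 over all genes. The normoxic SHEP21N_MYC array is the one with the high 3'/5' ratios, and their part in these values was not tested.

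The size of the difference varied between lines. In SK-N-BE2(C), IMR-32 and LAN-1 31 of 31 genes were lower in hypoxia, against 58.3%, 56.5% and 55.4% of all genes and 75.7%, 70.0% and 70.0% of bright genes, with medians of -0.29, -0.39 and -0.30. In SK-N-F1 and GI-ME-N 30 were lower (60.7% and 63.7% of all genes, 78.1% and 86.4% of bright genes), with medians of -0.35 and -0.40. GI-LI-N had 29 lower (55.1% of all genes, 71.5% of bright genes) and the lowest median, -0.47. ACN had 25 lower (53.3% and 60.1%) and a median of -0.17. With the signals as deposited the sizes were smaller, at -0.42 in GI-LI-N, -0.30 in IMR-32, -0.22 in LAN-1, -0.21 in SK-N-F1, -0.17 in SK-N-BE2(C), -0.16 in GI-ME-N with 26 genes lower, and -0.14 in ACN. The median over the 31 genes lay below that of the bright genes in 9 of 11 lines, the exceptions being SHEP21N and SHEP21N_MYC. The arrays of both these lines also had the higher lowest signal given above.

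In 4 lines the median of the genes lay near 0, while single genes ran widely in some. The quartiles were -0.28 and 0.27 in SHEP21N and -0.14 and 0.69 in SHEP21N_MYC. SHEP-2 had 17 lower (45.0% of all genes, 42.1% of bright genes) and a median of -0.05. SK-N-SH had 10 lower (38.6% and 18.4%) and a median of 0.06, with the bright genes at 0.16, and the direction depended on the scaling: with the signals as deposited 22 genes were lower and the median was -0.09. For SHEP-2 the same scaling gave 23 lower and a median of -0.14. SHEP21N had 14 lower (50.6% and 55.2%) and a median of 0.06, or 0.10 with the signals as deposited. SHEP21N_MYC had 12 lower (50.8% and 47.4%) and a median of 0.10, which became -0.11 with the signals as deposited and -0.10 after quantile normalization. In the 9 lines without both SHEP21N lines the median was -0.28 and 31 of 31 genes had a mean below 0 (57.4% of all genes), with 19 lower at an unadjusted limma p under 0.05 (8.47%). With 1 array per line and condition the change of a single line has no error, and a difference in the hypoxia effect between groups of lines was not tested.

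Within SHEP21N the genes moved in both directions. PSMC6, PSMA3, PSMA2, PSMC2 and PSMA4 were lower in hypoxia by log2 changes of -1.56, -1.01, -0.90, -0.73 and -0.54, while PSMD11, PSMC3 and PSMD3 were higher, at 0.75, 0.66 and 0.51. In SHEP21N_MYC the highest changes after PSMD3 and PSMC3 were 1.57 for PSMD8, 1.10 for PSMD11, 0.99 for PSMD2, 0.81 for PSMB7 and 0.76 for PSMA4. PSMD4 was the lowest there, at -0.55 by its brightest probeset, which went from 19036 to 11201. Its other bright probesets went the other way, from 9639 to 10942 and from 5358 to 9264. A dim PSMD4 probeset went from 20 to 7.7, so the direction for PSMD4 depended on the probeset. These are single array pairs, so their error is not known, and the ACTB 3'/5' ratio of the normoxic SHEP21N array was the second highest of all arrays.

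**Figure D3:**
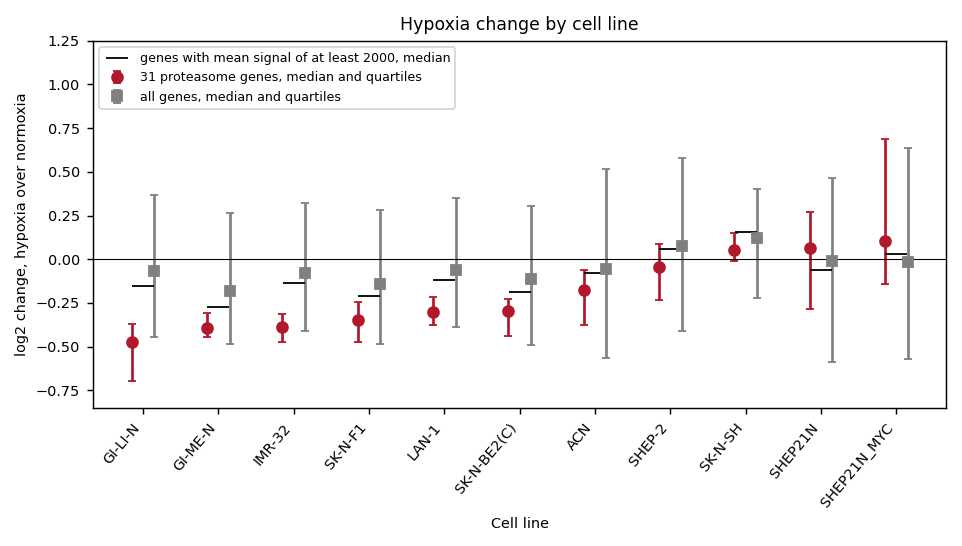
Log2 change, hypoxia over normoxia, in each cell line: red circles and bars are the median and quartiles of the 31 proteasome genes, grey squares and bars those of all 19775 genes, and short black lines the median of genes with a mean signal of at least 2000. The proteasome medians run from -0.47 in GI-LI-N to 0.10 in SHEP21N_MYC and lie below the black lines in 9 of 11 lines.

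Other probesets of the same genes were read as a further measure. The 31 genes have 58 probesets, and 27 of these were not the brightest. Of the 27, 14 had a mean signal of at least 500, on 11 genes, and 14 of 14 had a mean change below 0. Among bright genes 69.4% had a mean change below 0, and the share over all probesets was not counted. Below a signal of 500 directions were mixed. A dim probeset each of PSMB2, PSMD6, PSMB7, PSMD9, PSMD5 and PSMB1 was higher, by 0.98, 0.44, 0.35, 0.19, 0.13 and 0.05, and the rest were lower. All these probesets share the array with the brightest probeset and so are not independent samples. Over the 11 normoxic arrays 9 of the 14 correlated with the brightest at r above 0.5 and 2 at r below 0.

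Genes around the proteasome were read in the same fit. Of 36 listed genes of assembly, activation, shuttling and regulation 30 were measured, 0 passed the adjusted limit, and 4 were lower and 0 higher at an unadjusted limma p under 0.05, where 7.07% of all genes and 15.5% of bright genes were lower. Their median change was -0.12, against -0.04 over all genes and -0.09 over bright genes. The mean change was below 0 in 23 of 30, against 55.6% of all genes and 69.4% of bright genes. The 5 chaperones of 20S assembly were at a median of -0.27, with 5 of 5 lower and 2 at an unadjusted p under 0.05. Genes of ubiquitin activation and shuttling were at a median of -0.02, with 4 of 7 lower. PSMG1, a chaperone of the alpha ring, had normoxic signals from 2714 to 8890 (median 4489) and hypoxic signals from 1775 to 7732 (median 3259), a change of -0.44 ± 0.10 (SE, limma adjusted p 0.151) and lower in 10 of 11 lines. POMP, the chaperone of beta subunit entry, had medians of 19302 and 18464 and a change of -0.28 ± 0.09 (SE, limma adjusted p 0.286), lower in 10 of 11 lines.

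UCHL5, a deubiquitinase bound to the 19S cap, went from a median of 2971 to 2698 with a change of -0.32 ± 0.11 (SE, limma adjusted p 0.333), lower in 9 of 11 lines. UBQLN1, a shuttle factor that carries ubiquitinated proteins, went from a median of 6577 to 5692 with a change of -0.20 ± 0.09 (SE, limma adjusted p 0.458), lower in 9 of 11 lines. NFE2L1, the transcription factor that drives proteasome genes when proteasome activity is low, was at 0.20 ± 0.09 (SE, limma adjusted p 0.477), higher in 9 of 11 lines. It was not among the 4 related genes with the smallest p. The other measured genes of its list, transcription factors and their processing, were lower, NFE2L2 at -0.05 and NGLY1 at -0.27. The median of that list was -0.05. Of the activators, inhibitor and inducible subunits none had an unadjusted p under 0.05.

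Levels differed between lines for 27 of 31 genes (limma moderated F test, adjusted p under 0.05), against 64.2% of all genes and 96.0% of bright genes. This test takes the hypoxic and the normoxic array of a line as its replicates. Its error is what is left within these pairs after the mean hypoxia effect. The genes that did not pass were PSMC3, PSMD3, PSMD8 and PSMD11. Without SHEP21N_MYC all 31 passed, against 64.4% of all genes. PSMB4 had the largest F, 38.8 (adjusted p 3.55e-06), followed by PSMD5 (27.8), PSMD4 (22.5), PSMB3 (19.3) and PSMD9 (17.0). The range of normoxic levels over the lines was narrowest for PSMD1, at 1.03, and widest for PSMD5, at 10.10, then PSMC3 (4.40), PSMD3 (4.0), PSMA8 (3.46) and PSMB4 (3.31). The ranges of PSMD5 and PSMA8 reach down to signals below the median of the array and are no measure of a fold. The ranges of PSMC3 and PSMD3 start at the low normoxic SHEP21N_MYC signals given above. PSMD3 was also low in normoxic ACN and SHEP-2, with signals of 606.8 and 1141. Its levels there were 2.23 and 3.09, against 1.56 in SHEP21N_MYC and 5.56 in GI-ME-N, so its range does not rest on SHEP21N_MYC alone.

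PSMD5, a chaperone of the 19S base, had very low signals in 3 lines. Its signal was 2.70 in normoxia and 24.4 in hypoxia in GI-LI-N, 15.6 and 6.73 in IMR-32, and 35.9 and 4.55 in SK-N-SH. On the 16 other arrays it lay between 1033 and 2488 and so did not overlap with the 3 lines. The signals of the 3 lines are below the median of their arrays, so no fold is given. Its other probeset was dim, at 1.86 to 183 on all arrays, and adds no measurement. In the 8 other lines the change was -0.30 ± 0.21 (SD), lower in 8 of 8, and no test is given. These are the 3 lines whose normoxic arrays were most alike, and whether that and the low PSMD5 signal have a common source was not tested.

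PSMB4, a beta ring subunit, was read by 3 probesets that disagree. The brightest gave 2838 to 5709 on the arrays of ACN and SHEP-2 and 9017 to 31716 on the others, and the second, which correlated with it at r of 0.99 over the 11 normoxic arrays, gave 457 to 793 against 2555 to 24931. The third gave the reverse, 49216 to 51916 in ACN and SHEP-2 and 1087 to 7928 in the others, with r of -0.95 to the brightest. ACN and SHEP-2 stand apart at all 3, in opposite directions. The related line SHEP21N was 7.28-fold above SHEP-2 at the brightest probeset in normoxia, on the array-median scale. The signals as deposited were 28727 and 5709. On the array-median scale bright genes in general also differed, with median deviations of 0.03 in SHEP21N and -0.72 in SHEP-2. A difference between these lines cannot be told apart from one in array processing. The probe positions were not analysed here, so what the third probeset measures was not settled.

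**Figure D4:**
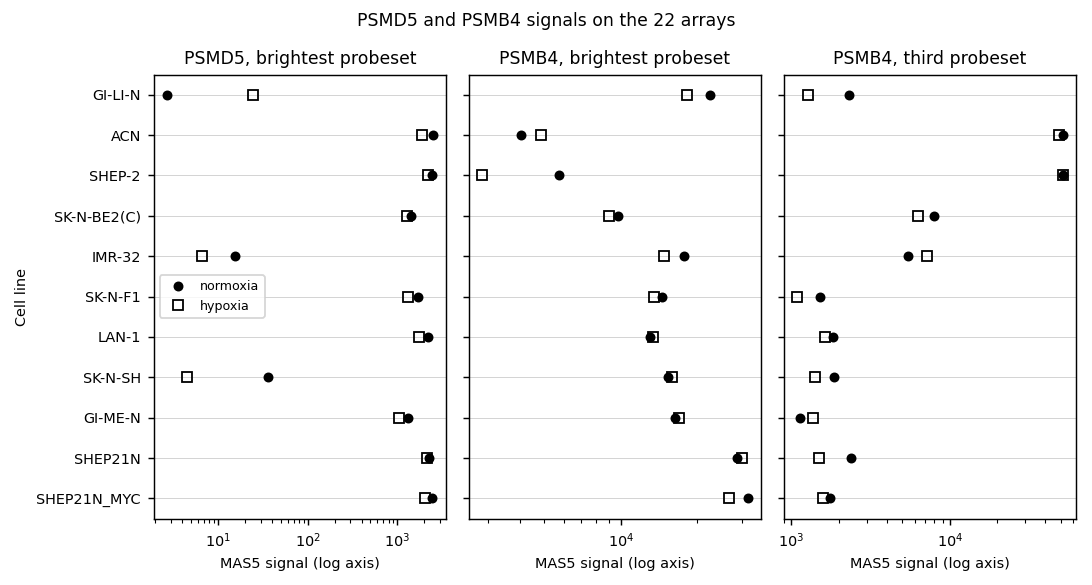
MAS5 signal on a log axis at PSMD5's brightest probeset (left), PSMB4's brightest (middle) and the third PSMB4 probeset (right), for each cell line in normoxia (filled circles) and hypoxia (open squares). IMR-32, GI-LI-N and SK-N-SH sit at or below 35.9 for PSMD5, and ACN and SHEP-2 are lowest in the middle panel and highest in the right panel, at 49216 to 51916.

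PSMB3, the beta subunit with the next widest normoxic range, had 5033 in ACN and 5253 in SHEP-2 in normoxia and 12659 or more in the other lines. In hypoxia ACN and SHEP-2 had 3947 and 5708, and the other lines 9406 or more. PSMD9 had normoxic signals from 1740 in GI-LI-N to 4107 in SHEP21N_MYC, and the lines GI-ME-N, SHEP21N and SHEP21N_MYC were at 3717, 3703 and 4107 against at most 2435 in the others.

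The order of the lines by their normoxic level over the 31 genes depended on the scaling. The median deviation from each gene's median was -0.58 in ACN, -0.45 in SHEP-2 and -0.52 in SK-N-BE2(C), and 0.41 in LAN-1 and SHEP21N and 0.38 in GI-ME-N. With the signals as deposited ACN, SHEP-2 and LAN-1 were at 0 and GI-ME-N at 0.05, while SK-N-BE2(C) stayed low at -0.35 and SHEP21N high at 0.40. On the array-median scale bright genes in general were at -0.66 in ACN, -0.72 in SHEP-2, 0.44 in LAN-1 and 0.36 in GI-ME-N. They were at -0.16 in SK-N-BE2(C) and 0.03 in SHEP21N. On this scale GI-ME-N was the highest line for 15 of the 31 genes and SK-N-BE2(C) the lowest for 11. The shares of all genes and of bright genes were not counted, so these counts are not read as particular to the proteasome genes.

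**Figure D5:**
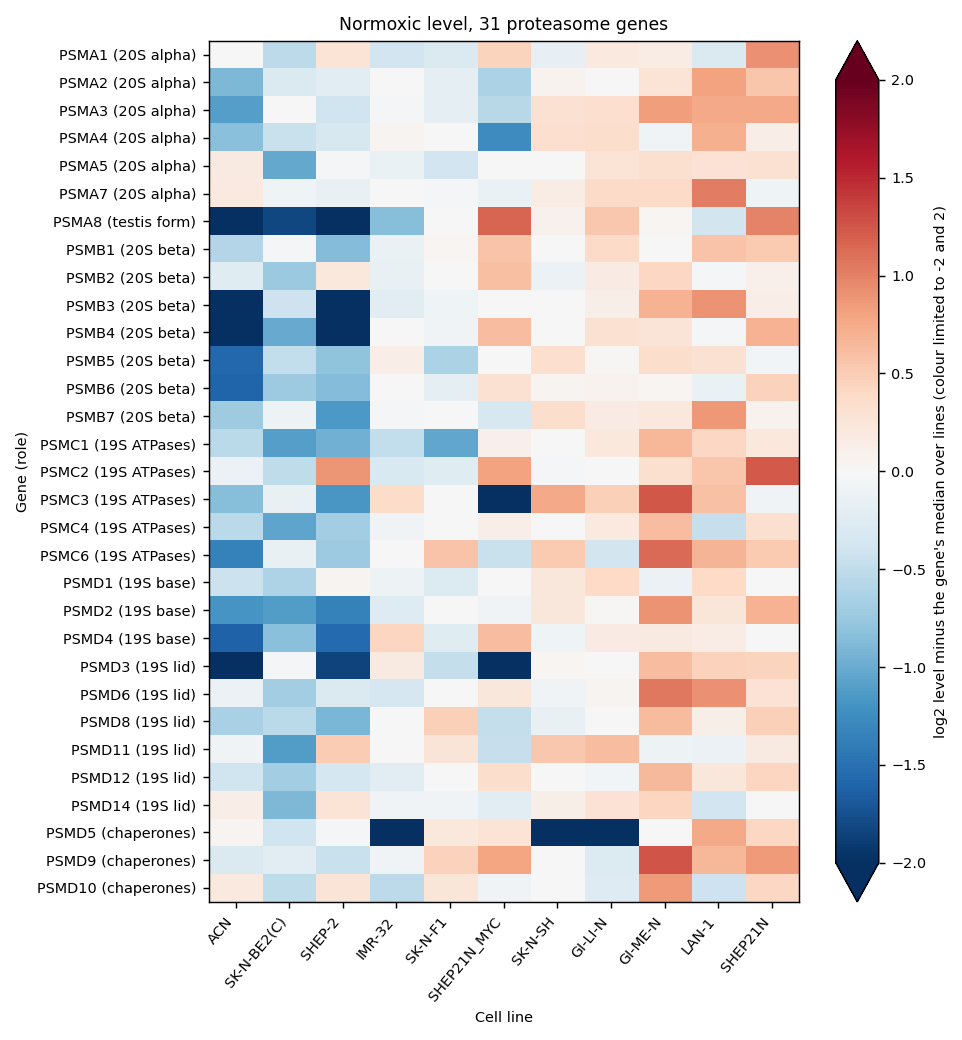
Normoxic level of the 31 proteasome genes (rows) in the 11 cell lines (columns), as log2 of the signal over the array median minus the gene's median over lines, with colours limited to -2 and 2. ACN, SK-N-BE2(C) and SHEP-2 are mostly blue and GI-ME-N, LAN-1 and SHEP21N mostly red, and PSMD5 is dark blue in IMR-32, SK-N-SH and GI-LI-N.

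Likeness between the genes was described by correlations over the lines. Over the 465 pairs the median Pearson correlation of the normoxic level over 11 lines was 0.46, against 0.28 for bright genes and 0.04 for all genes. For the hypoxia change it was 0.44, against 0.17 for bright genes and 0.02 for all genes. Without SHEP21N_MYC these were 0.54 for the level and 0.50 for the change, against 0.32 and 0.22 for bright genes. Over 11 lines pairs of the same role had 0.48 for the level and 0.60 for the change, and pairs of different roles 0.46 and 0.43. Without SHEP21N_MYC pairs of the same role had 0.53 and 0.61, and pairs of different roles 0.55 and 0.46, so the order for the level depended on that line. All points of a pair share an array and its median, so the correlations are descriptions with n of 11 lines.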

How the data were processed

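Total RNA of 11 neuroblastoma cell lines, each kept for 18 h in hypoxia or in normoxia, was read by the authors on Affymetrix HG-U133 Plus 2.0 chips, 1 array per line and condition. The deposited values are intensities on a linear scale, made by the authors with MAS5 (version not given in the sources used here), and the average of each array was set to 500 by them. All 22 arrays were used. The number of lines limits the precision, and no error of a single array is known.

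Levels are log2 of the signal over the median of its array. Of 54675 probesets 41091 name a single gene in the platform annotation, 1801 name several, 6 are control probesets that name a gene and were left out, and 11777 name none or are unlisted. Each of 19775 genes was read from its brightest probeset, by mean log2 signal over the arrays. Of the single-gene probesets 41037 were matched to the RefSeq gene table (GRCh38.p14) by gene number. The main test was limma 3.58.1 under R 4.3.3, with a term for condition and cell line as block. Benjamini-Hochberg adjustment ran over all genes, with a limit of 0.05. The lines pair the arrays, since both arrays of a pair carry the same cell line label, and the deviations of the paired arrays correlated between 0.53 and 0.69. Exact sign-flip permutation tests were two-sided and used all 2048 sign patterns. The script was tested on simulated data.

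Full values are given for the 6 genes with the smallest p, the 5 with the widest normoxic range and the 4 related genes with the smallest p, with known hypoxia genes, cell type markers and control probesets beside them. The members and lists were chosen with earlier results of these data known. The background of genes with a mean signal of at least 2000 was added after the values were seen. The promoter windows are RefSeq's, 250 bases before to 50 after a start. Alternatives were other scalings, floors, filters, probeset rules, tests and sets of lines. Python 3.11.15, numpy 2.4.6, pandas 2.3.3 and matplotlib 3.10.9 were used.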

Additional observations from a re-analysis of the deposited data

How the results depend on the processing

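No proteasome gene passed the adjusted limit under any of the 22 alternatives, and the smallest adjusted p of any of them ranged from 0.0512 with a paired t-test to 1.0 without the pairing. The 11 genes lower at an unadjusted p under 0.05 (7.07% of all genes) became 7 (5.86%) when all probesets of each gene were averaged, 17 (8.55%) with the 3 SHEP lines averaged, 19 (8.47%) with both SHEP21N lines left out and 0 (0.79%) with no cell line block, that is without pairing. Leaving out a cell line at a time gave 8 to 13 (5.74% to 7.95%). PSMB2 was the exception in direction among the 6 genes with the smallest p: its change was 0.060 after averaging all its probesets, of which a dim one had a mean signal of 25.4 and a change of 0.98. The other 5 kept their direction under all 22 alternatives. Without a cell line at a time the number of genes with a mean change below 0 ranged from 27 to 31, their median change from -0.26 to -0.17, and the number that differed between lines from 23 to 31. The alternative with ACN and SHEP-2 left out, and the lines left out in turn for the difference between lines, were chosen after the data were seen. With 1 array per line and condition, a line's own change has no error.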
